A study of Mus musculus with 8 samples.

Results

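Genes of the blood-brain barrier were followed in brain RNA of mice with autoimmune inflammation of the central nervous system. They are 10 named genes: the tight junction genes Cldn5, Ocln and Tjp1, the vesicle and fenestra genes Plvap and Mfsd2a, the glucose transporter gene Slc2a1, the organic anion transporter genes Slco1a4 and Slco1c1, and the efflux pump genes Abcb1a and Abcg2. The genes were listed by name, and all 10 of 10 were measured, among 22180 genes with at least 1 probe set of a single gene symbol. Slc2a1 had 2 probe sets, whose mean was used, and each other gene had 1.

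The series holds 8 microarrays of total brain RNA, 1 per sample and 2 per group, from mice immunized with myelin oligodendrocyte glycoprotein (MOG) and taken on day 14, at the height of disease. The 4 groups were e/e NDP-MSH, e/e PBS, wild-type NDP-MSH and wild-type PBS. The e/e mice (C57BL/6Je/e) have a yellow coat and an allele that inactivates Mc1r, the melanocortin 1 receptor, and wild-type mice have a black coat. NDP-MSH is a stable analog of alpha-MSH that activates melanocortin receptors, given by vein on days 8, 10 and 12 in doses of 5 µg per mouse, and PBS (phosphate-buffered saline) is its control. All groups, controls included, were immunized, so no comparison with healthy brain was possible. Mice were assigned to a genotype by coat colour, and their sex, age and disease scores were not used here. No source says that replicates were separate animals, so each p-value reflects only how these samples spread, which may be technical.

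The barrier is formed by the endothelial cells of brain vessels. Tight junction strands of claudins and occludin, tied to the cytoskeleton by zonula occludens proteins, close the path between the cells. Low rates of vesicle transport limit the path through them, while carriers bring in glucose, lipids and hormones and pumps return drugs and toxins to the blood. In MOG-induced disease this barrier becomes leaky where leukocytes enter.

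Values are the deposited ones, taken as log2, and each probe set is centred on its median over the 8 arrays, so the values give differences and no levels. The labelled tissue could therefore not be checked by the level of its markers. In RNA of whole tissue, fewer endothelial cells and less RNA per cell cannot be told apart. Several arrays stood apart in other genes. Of 9 cerebellar genes measured, the median lay at -2.46 and -1.89 for NDP-MSH in wild-type mice, and between -0.09 and 0.35 in the other arrays. Among them Gabra6, the granule cell GABA receptor gene, lay at -3.35 and -2.83 with NDP-MSH in wild-type mice and at -0.21 and 0.08 in wild-type PBS, and Cbln3 at -3.19 and -2.67 against -0.01 and 0.26. The pituitary hormone gene Prl reached 6.97 in wild-type NDP-MSH 1, with 0.10 as its highest value elsewhere. In the same array Gh lay at 6.54, Pomc at 3.64 and Cga at 2.31. Interferon gamma response genes (10 measured) had medians of -2.51 and -2.75 with NDP-MSH in e/e mice and of -1.93 and 0.77 in e/e PBS. In wild-type mice they were 0.33 and 0.31 with NDP-MSH and -0.275 and 0.78 with PBS. The array e/e PBS 1 thus lay below every other PBS array in these genes. Both e/e NDP-MSH arrays had low Xist (-4.46 and -4.56) and high Eif2s3y, a Y-linked gene (2.78 and 2.87), which was also at 2.04 in e/e PBS 2. In the comparison of NDP-MSH with PBS in e/e mice, sex and treatment can therefore not be told apart. In wild-type PBS Eif2s3y lay at 0.02 and -0.07. With e/e PBS 2 at 2.04, sex and genotype can thus not be fully told apart under PBS. The same holds for the difference of the NDP-MSH effects between the genotypes. The median of 19 endothelial identity genes lay between -0.05 and 0.08 over the 8 arrays, while single genes varied more: Ly6c1, named after its values were seen, had the widest range (1.30), with its lowest value (-0.95) in wild-type NDP-MSH 2, and the range of Cd34 was 0.78. Both wild-type NDP-MSH arrays, and no others, had low cerebellar transcripts. In the wild-type comparison, treatment and whatever lowered these transcripts can therefore not be told apart. These arrays also enter the difference of the NDP-MSH effects between the genotypes, with the same limit. The part of these array differences in the barrier genes' values was not tested.

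**Figure D1:**
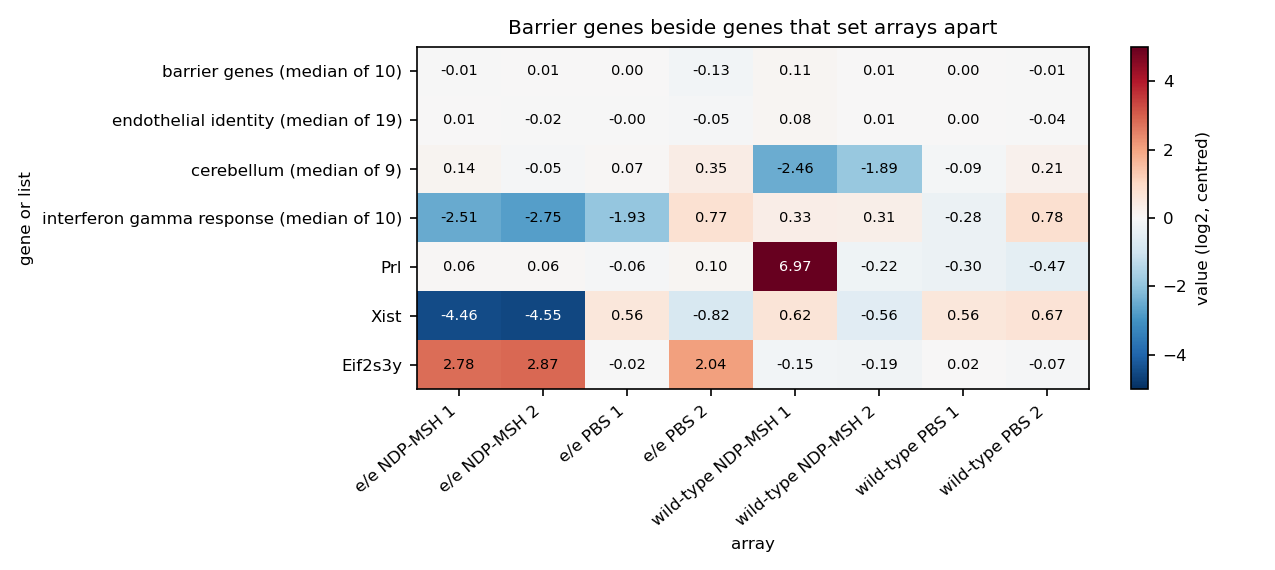
Value (log2, centred per probe set) in each of the 8 arrays (columns) for the barrier genes as a median, for 3 other gene lists as medians, and for Prl, Xist and Eif2s3y as single genes; colour runs from blue (low) to red (high). The barrier medians lie between -0.13 and 0.11, while the cerebellar median reaches -2.46 and Prl 6.97.

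None of the 10 barrier genes passed the threshold (limma over all genes, Benjamini-Hochberg adjusted p under 0.05) in any of the 4 comparisons, and none passed under any alternative processing that gave it a value. For NDP-MSH against PBS in wild-type mice, 0 of 10 passed, where 0.176% of all genes were called (0.00451% higher and 0.171% lower). An unadjusted p under 0.05 was found for 3 of 10, against 12.3% of all genes. These 3 were Slco1a4, Cldn5 and Slc2a1, the last taken as the mean of 2 probe sets that differed from each other. For NDP-MSH against PBS in e/e mice, 0 of 10 passed, where 0% of all genes were called, and 1 of 10 had an unadjusted p under 0.05, against 3.56%. In e/e against wild-type mice under PBS, 0 of 10 passed, where 0% were called, and 2 of 10 had an unadjusted p under 0.05, against 4.91%. In simulated data for the wild-type comparison the test called 0 of 50 genes changed by 0.25 on the log2 scale and 19 of 50 changed by 0.5. The difference of Slco1a4 in wild-type mice was about as large as the second size. The simulation drew independent noise without regional or sex-linked differences and changed genes only in wild-type NDP-MSH. Its rates therefore do not carry over to the other comparisons. The list showed no common direction in wild-type mice, with 6 genes higher, 4 lower and a median difference of 0.04, beside 0.02 over all genes. In e/e mice 8 were higher and 2 lower (median 0.06, beside 0.01 over all genes, of which 53.7% were higher). For e/e against wild-type under PBS 2 were higher and 8 lower (median -0.04, beside 0.00 over all genes, of which 50.1% were higher). Both comparisons use the e/e PBS arrays, where the barrier genes had medians of 0.004 and -0.13. On leaving out 1 array the median difference ran from 0.003 to 0.11 in e/e mice. Under PBS it ran from -0.07 to -0.001.

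**Figure D2:**
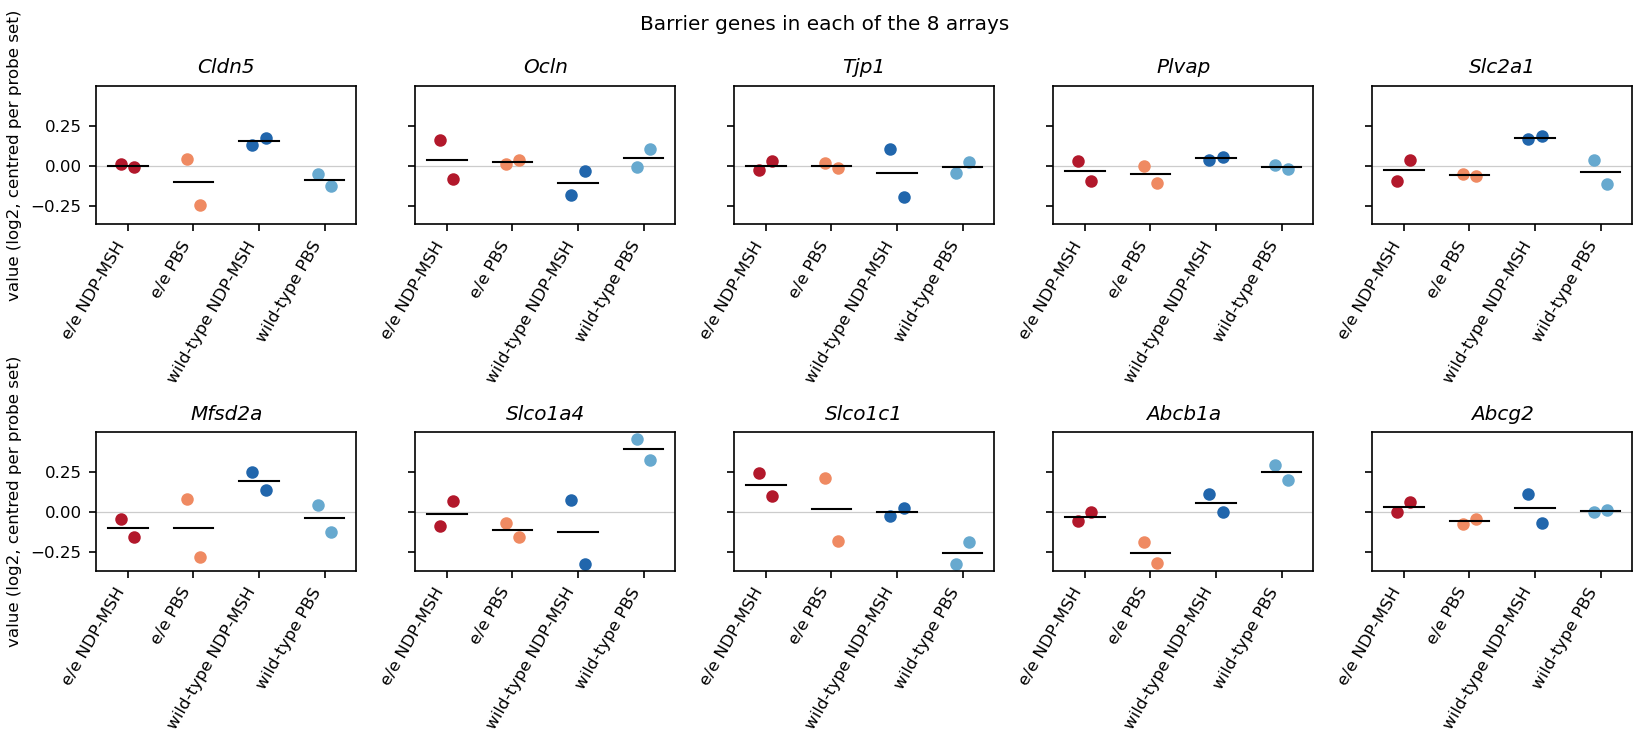
Value (log2, centred per probe set) of each of the 10 barrier genes in every array; points are arrays, lines are group means of 2 arrays, and columns are the 4 groups. Slco1a4 and Abcb1a are highest in both wild-type PBS arrays, Slco1c1 is lowest there, and Abcg2 and Plvap vary little.

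Cldn5 (chr16:18776847-18778262, all gene positions from RefSeq in GRCm38.p6) encodes claudin 5, the dominant claudin of brain endothelium. It lay at 0.01 and -0.01 with NDP-MSH in e/e mice and at 0.04 and -0.25 in e/e PBS. It lay at 0.13 and 0.17 with NDP-MSH in wild-type mice and at -0.06 and -0.12 in wild-type PBS. Both wild-type NDP-MSH arrays were above every other array. The difference of NDP-MSH from PBS in wild-type mice was 0.24 ± 0.10 (SE, limma, adjusted p = 0.397, 95% interval 0.004 to 0.48), and in e/e mice 0.10 ± 0.10 (adjusted p = 1). The e/e difference rested on e/e PBS 2, which had Eif2s3y at 2.04 beside Xist at -0.82, and was -0.04 without it.

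Ocln (chr13:100496504-100552718) encodes occludin, which spans the membrane at the same strands. It lay at -0.18 and -0.04 with NDP-MSH in wild-type mice and at -0.01 and 0.10 in wild-type PBS, so those groups did not overlap, with the NDP-MSH arrays lower by a difference of -0.16 ± 0.10 (limma, adjusted p = 0.564). This was -0.09 without wild-type NDP-MSH 1 and -0.10 without wild-type PBS 2. In e/e mice the NDP-MSH arrays lay at 0.16 and -0.09, on both sides of the PBS arrays at 0.01 and 0.03, with a difference of 0.02 ± 0.10 (adjusted p = 1). Tjp1 (chr7:65296165-65527850) encodes a zonula occludens scaffold protein that many cell types besides endothelium use. It lay at 0.10 and -0.20 with NDP-MSH in wild-type mice and at -0.04 and 0.02 in wild-type PBS, so that its widest spread was between arrays of 1 group. Its e/e arrays lay at -0.03 and 0.03 after NDP-MSH and at 0.01 and -0.01 after PBS. Its differences were -0.04 ± 0.10 in wild-type mice, 0.00 ± 0.10 in e/e mice and 0.01 ± 0.10 for e/e against wild-type under PBS. The 95% interval of Tjp1 in e/e mice was -0.24 to 0.24.

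Plvap (chr8:71497753-71511806) encodes the protein of the diaphragms that close fenestrae and vesicle necks in leaky vessels, and it is low in mature barrier vessels. It lay at 0.03 and -0.10 with NDP-MSH in e/e mice, at 0.00 and -0.11 in e/e PBS, at 0.04 and 0.05 with NDP-MSH in wild-type mice, and at 0.00 and -0.02 in wild-type PBS. Its range over the 8 arrays was 0.16, and 9.74% of all genes had a smaller one. The vessels of the pituitary are fenestrated. The array with Prl at 6.97 had Plvap at 0.04, beside 0.05 in the other array of its group. Whether pituitary tissue changed the value of Plvap in that array was not tested. The NDP-MSH difference of Plvap was 0.06 ± 0.08 in wild-type mice (adjusted p = 0.807, 95% interval -0.13 to 0.24) and 0.02 ± 0.08 in e/e mice (adjusted p = 1). The Plvap probe set, like those of Cldn5, Ocln and Abcg2, was of the lower signal class (4 to 8 before centring, against 8 or above for the other barrier genes), and whether its signal narrowed its differences was not tested.

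Mfsd2a (chr4:122946850-122961194) encodes the lysolipid carrier of brain endothelium that restrains vesicle transport across it. It lay at 0.25 and 0.14 with NDP-MSH in wild-type mice and at 0.05 and -0.12 in wild-type PBS. The 2 wild-type NDP-MSH arrays were the highest of the 8, as for Cldn5. The difference was 0.23 ± 0.13 (limma, adjusted p = 0.495), and 0.15 without wild-type PBS 2. In e/e mice it lay at -0.05 and -0.15 after NDP-MSH and at 0.09 and -0.28 after PBS, a difference of 0.00 ± 0.13. Leaving out e/e PBS 1 gave 0.18, and leaving out e/e PBS 2 gave -0.19.

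Slc2a1 (chr4:119108745-119137330) encodes the glucose transporter of barrier endothelium, and is also found in astrocytes. As the mean of its probe sets it lay at 0.16 and 0.19 with NDP-MSH in wild-type mice, the highest of the 8 arrays, and at 0.04 and -0.12 in wild-type PBS, a difference of 0.22 ± 0.08 (limma, adjusted p = 0.369), and 0.14 without wild-type PBS 2. In e/e mice it lay at -0.10 and 0.04 after NDP-MSH and at -0.05 and -0.07 after PBS, a difference of 0.03 ± 0.08. The probe sets did not share this pattern. The first lay at 0.22 and -0.07 with NDP-MSH in wild-type mice and at 0.04 and -0.05 in wild-type PBS, a difference of 0.08 (adjusted p = 0.794 with every probe set as its own feature). The second lay at 0.11 and 0.44 with NDP-MSH in wild-type mice and at 0.03 and -0.18 in wild-type PBS, a difference of 0.35 (adjusted p = 0.377). Most of the wild-type difference thus came from the second probe set, where wild-type NDP-MSH 2 was the highest array. Probe set numbers of this platform run in blocks: for 95.5% of 18022 probe sets whose gene has a strand in RefSeq, the gene lay on the strand of most of its 20 neighbours on each side. Slc2a1 is on the plus strand of chromosome 4. Of the 40 neighbours of the first probe set 37 were plus-strand genes, and of the 40 neighbours of the second 39 were minus-strand genes. Each other barrier gene with a listed strand was on the strand of most of its neighbours. Which strand the second probe set reads was not tested.

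**Figure D3:**
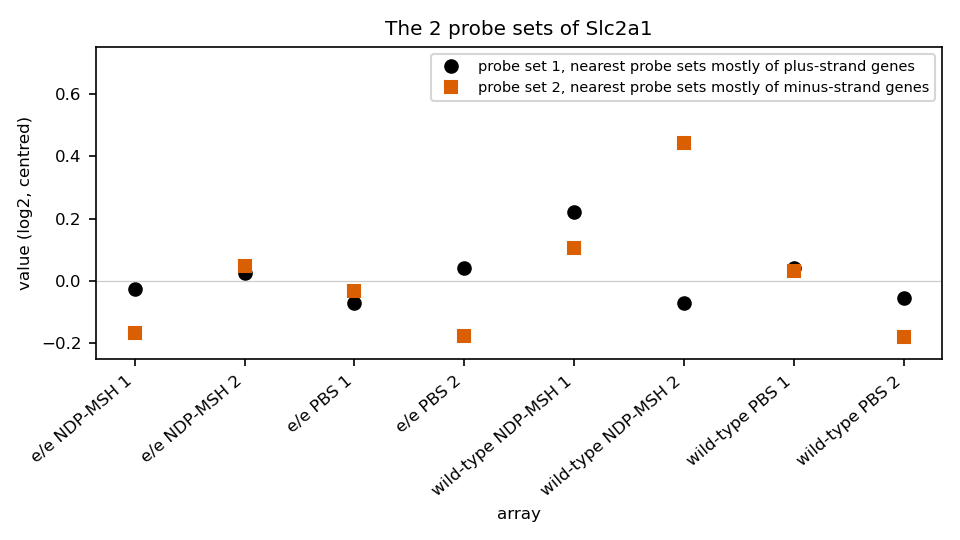
Value (log2, centred) of the 2 Slc2a1 probe sets in each array; circles are the first probe set, squares the second. They lie closest in the wild-type PBS 1 array and furthest apart in wild-type NDP-MSH 2, at -0.07 and 0.44.

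Slco1a4 (chr6:141805438-141856284) encodes an organic anion transporter of rodent barrier endothelium that carries bile acids, steroid conjugates and drugs. It had the widest range of the 10 genes, 0.78, and 93.8% of all genes had a smaller one. It lay at -0.09 and 0.07 with NDP-MSH in e/e mice, at -0.07 and -0.16 in e/e PBS, at 0.08 and -0.32 with NDP-MSH in wild-type mice, and at 0.46 and 0.33 in wild-type PBS. The 2 wild-type PBS arrays were above all 6 others. NDP-MSH against PBS differed by -0.52 ± 0.14 in wild-type mice (limma, unadjusted p = 0.00596, adjusted p = 0.248), which is a ratio of 0.70. The NDP-MSH difference in e/e mice was 0.10 ± 0.14. Under PBS, e/e against wild-type differed by -0.51 ± 0.14 (adjusted p = 0.888). The first and the last of these comparisons share the wild-type PBS arrays. Without wild-type NDP-MSH 2 the wild-type difference was -0.32.

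Slco1c1 (chr6:141524354-141570177), whose product carries thyroxine into the brain and is found in endothelium, choroid plexus and astrocytes, lies on chromosome 6 as Slco1a4 does, 235260 bases away. It lay at -0.03 and 0.03 with NDP-MSH in wild-type mice and at -0.33 and -0.19 in wild-type PBS, its lowest group, where Slco1a4 was highest. In e/e mice it lay at 0.25 and 0.10 after NDP-MSH and at 0.22 and -0.18 after PBS. The difference of NDP-MSH from PBS was 0.26 ± 0.13 in wild-type mice (limma, adjusted p = 0.466) and 0.15 ± 0.13 in e/e mice (adjusted p = 1). The e/e value was -0.04 without e/e PBS 2. Under PBS, e/e differed from wild-type by 0.28 ± 0.13 (adjusted p = 0.971), and by 0.08 without e/e PBS 1. Ttr, the plexus thyroxine carrier, lay at -0.86 and 0.05 with NDP-MSH in wild-type mice and at -0.29 and 0.19 in wild-type PBS. The 9 choroid plexus genes measured had a median difference of -0.28 for NDP-MSH in wild-type mice, where Slco1c1 was higher. Their medians by array overlapped, at -0.34 and 0.15 with NDP-MSH and at -0.06 and 0.19 in wild-type PBS. The part of these genes in the value of Slco1c1 was not tested.

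Abcb1a (chr5:8567091-8748575) encodes P-glycoprotein, the main drug efflux pump at the luminal side of rodent brain endothelium. It lay at -0.06 and 0.00 with NDP-MSH in e/e mice and at -0.19 and -0.32 in e/e PBS. It lay at 0.11 and 0.00 with NDP-MSH in wild-type mice and at 0.30 and 0.20 in wild-type PBS. The e/e PBS arrays were the lowest and the wild-type PBS arrays the highest of the 8, and the NDP-MSH arrays of both genotypes lay between them. Between e/e and wild-type mice under PBS the difference was -0.50 ± 0.08, a ratio of 0.71, with the 9th smallest p of all genes (unadjusted p = 0.000428) and an adjusted p = 0.839 (limma). Over the alternatives this difference ranged from -0.57 to -0.44. In e/e PBS 1 alone Eif2s3y lay at -0.02, near the wild-type PBS arrays at 0.02 and -0.07, and Abcb1a at -0.19. Sex and genotype were not fully separated in this difference, and the part of sex in it was not tested. NDP-MSH against PBS differed by -0.19 ± 0.08 in wild-type mice (adjusted p = 0.41) and by 0.23 ± 0.08 in e/e mice (adjusted p = 1). Its close paralog Abcb1b lay at -0.18 and -0.22 with NDP-MSH in e/e mice, at 0.03 and -0.03 in e/e PBS, at 0.33 and 0.05 with NDP-MSH in wild-type mice, and at -0.04 and 0.19 in wild-type PBS, another order. Abcb1b was named as a paralog, after its values were seen. Sharing of probes between these paralogs was not tested.

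Abcg2 (chr6:58584491-58692451) encodes the breast cancer resistance protein, a pump with substrates that overlap those of P-glycoprotein. It lay at 0.00 and 0.07 with NDP-MSH in e/e mice, at -0.07 and -0.04 in e/e PBS, at 0.11 and -0.07 with NDP-MSH in wild-type mice, and at 0.00 and 0.01 in wild-type PBS. The e/e PBS arrays were below both the e/e NDP-MSH and the wild-type PBS arrays, by small amounts. The differences were 0.02 ± 0.08 for NDP-MSH in wild-type mice, 0.09 ± 0.08 for NDP-MSH in e/e mice and -0.06 ± 0.08 for e/e against wild-type under PBS (limma, adjusted p = 0.952, 1 and 1.00).

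**Figure D4:**
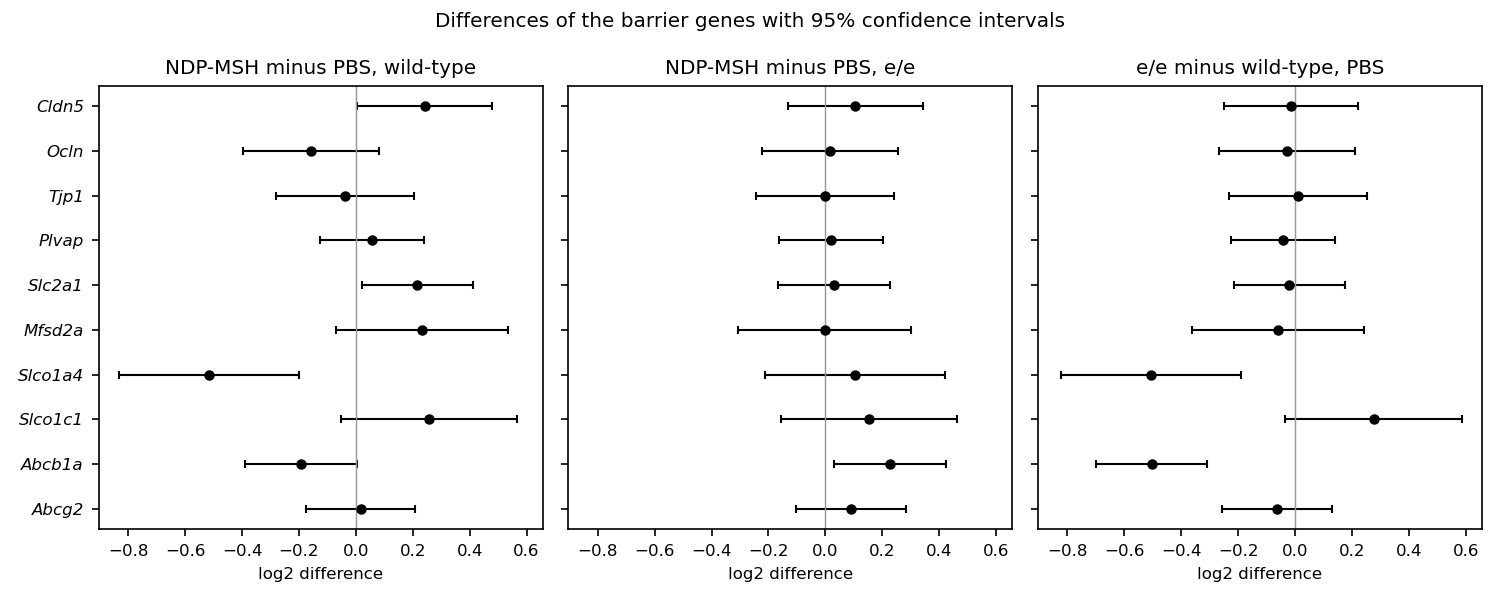
Log2 difference of each barrier gene in 3 comparisons; points are limma estimates and bars are 95% confidence intervals, unadjusted for the number of genes. The intervals of Slco1a4 (wild-type, and e/e minus wild-type) and Abcb1a (e/e minus wild-type, and NDP-MSH in e/e) lie to 1 side of 0, as do those of Cldn5 and Slc2a1 in wild-type mice, and none of the 10 genes passed after adjustment.

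Whether groups overlapped was a weak guide with 2 arrays each. Slc2a1 was counted by the mean of its 2 probe sets, though in wild-type mice the groups overlapped in the first probe set. In the wild-type comparison 8 of the 10 genes had NDP-MSH and PBS arrays that did not overlap, 5 higher and 3 lower, where 44.2% of all genes did (25.3% higher and 18.9% lower). In the e/e comparison 2 of 10 did so, both higher, Abcb1a and Abcg2, where 30.3% of all genes did (16% higher). For e/e against wild-type under PBS 4 of 10 did so, 1 higher (Slco1c1) and 3 lower (Abcb1a, Slco1a4 and Abcg2), where 34.1% of all genes did (17.4% higher and 16.7% lower).

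The difference of the NDP-MSH effects between the genotypes, e/e minus wild-type, was tested in the same fit and uses the PBS arrays that the comparison of the genotypes also uses. It also uses the wild-type NDP-MSH arrays with low cerebellar transcripts. The 9 cerebellar genes measured had a median of 2.12 in it, and what lowered them cannot be told apart from treatment here. Of the 10 genes 0 passed, where 0% of all genes were called, and 2 had an unadjusted p under 0.05, against 7.71% of all genes. They were Slco1a4, whose effects differed by 0.62 ± 0.19 (limma, adjusted p = 0.548), and Abcb1a, whose effects differed by 0.42 ± 0.12 (adjusted p = 0.51). Abcb1a was lower after NDP-MSH in both wild-type arrays and higher in both e/e arrays. For the other 8 genes the difference lay between -0.24 (Mfsd2a) and 0.17 (Ocln). Both limits depended on single arrays, since Mfsd2a ran from -0.42 (without e/e PBS 2) to -0.05 (without e/e PBS 1) and Ocln from 0.05 to 0.30 (without e/e NDP-MSH 1 and 2 in turn).

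The promoters of the genes with the widest ranges were read from RefSeq (GRCm38.p6), which listed 12 promoters for 9 of the 10 genes. The 250 bases before the start are shown for the 3 genes that set wild-type PBS apart and for Cldn5 and Mfsd2a, which followed each other most closely, with each CG dinucleotide in capitals. These promoters are chr6:141856221-141856470 (minus strand) for Slco1a4, chr6:141524104-141524353 (plus) for Slco1c1, chr5:8566841-8567090 (plus) for Abcb1a, chr16:18776597-18776846 (plus) for Cldn5 and chr4:122961189-122961438 (minus) for Mfsd2a.
Slco1a4: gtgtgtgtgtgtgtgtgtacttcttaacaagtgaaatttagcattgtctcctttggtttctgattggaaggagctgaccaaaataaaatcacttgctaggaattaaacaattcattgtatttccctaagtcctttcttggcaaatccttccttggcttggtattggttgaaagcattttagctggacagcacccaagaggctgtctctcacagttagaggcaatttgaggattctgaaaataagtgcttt
Slco1c1: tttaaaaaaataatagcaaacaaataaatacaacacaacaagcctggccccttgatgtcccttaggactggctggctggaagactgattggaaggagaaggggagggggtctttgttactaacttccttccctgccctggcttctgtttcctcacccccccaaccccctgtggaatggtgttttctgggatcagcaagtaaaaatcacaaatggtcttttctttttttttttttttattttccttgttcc
Abcb1a: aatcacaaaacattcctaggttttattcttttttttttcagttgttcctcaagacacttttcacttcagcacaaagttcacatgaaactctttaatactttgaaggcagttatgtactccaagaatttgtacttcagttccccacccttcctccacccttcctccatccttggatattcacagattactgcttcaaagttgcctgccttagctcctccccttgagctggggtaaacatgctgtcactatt
Cldn5: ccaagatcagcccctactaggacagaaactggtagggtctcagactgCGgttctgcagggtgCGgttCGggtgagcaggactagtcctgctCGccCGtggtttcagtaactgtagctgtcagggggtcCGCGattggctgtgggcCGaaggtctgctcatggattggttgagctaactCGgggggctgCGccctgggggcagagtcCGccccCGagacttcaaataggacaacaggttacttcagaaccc
Mfsd2a: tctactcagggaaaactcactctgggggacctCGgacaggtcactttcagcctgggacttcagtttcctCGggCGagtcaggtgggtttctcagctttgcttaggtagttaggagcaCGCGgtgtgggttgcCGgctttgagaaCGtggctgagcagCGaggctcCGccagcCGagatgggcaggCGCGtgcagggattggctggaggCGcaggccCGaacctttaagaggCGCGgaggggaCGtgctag
The promoters of Slco1a4, Slco1c1 and Abcb1a held no CG and had a GC content of 39.2%, 42.8% and 40.4%, whereas Cldn5 held 12 CG at 59.6% and Mfsd2a 17 at 61.6%. Of the genes measured with a listed promoter, 6.7% held no CG in any, and the median range of such genes over the 8 arrays was 0.25, beside 0.33 for genes with a CG. Over all genes the promoters without a CG thus went with the narrower range, unlike the 3 genes shown.

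Motifs of factors linked to melanocortin and barrier signalling were searched on both strands of the 250 bases. Melanocortin receptors raise cAMP, and the full cAMP response element TGACGTCA was found in 1 of 12 promoters, beside 1.55% of all 32851 promoters of this length in the table. Its core TGACG, which overlaps it, was in 2 of 12, both of Abcg2, beside 17.8%. The full element lies in 1 of the 3 Abcg2 promoters, chr6:58640296-58640545 (plus strand), shown with the element in capitals.
Abcg2: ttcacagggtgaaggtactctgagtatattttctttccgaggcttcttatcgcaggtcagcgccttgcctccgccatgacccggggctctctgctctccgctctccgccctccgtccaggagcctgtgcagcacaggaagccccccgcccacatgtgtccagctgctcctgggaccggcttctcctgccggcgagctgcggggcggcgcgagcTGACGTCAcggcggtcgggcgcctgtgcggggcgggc
The element began 37 bases before the start. Abcg2 was among the genes that varied least, with a range of 0.19, and 14.2% of all genes had a smaller one. The NR4A element AAAGGTCA (1.34% of all promoters), the TCF/LEF element CTTTGAT (3.21%) and the TATA box TATAAA (12.4%) were in 0 of the 12. The GC box GGGCGG was in 7 of 12, for Abcg2, Cldn5, Ocln, Slc2a1 and Tjp1, beside 32.7% of all promoters. A match is a run of letters, and these letters were not shown to be bound.

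Other genes of the barrier were described by lists. Over all genes, the share with an unadjusted p under 0.05 was 12.3% for NDP-MSH in wild-type mice and 3.56% in e/e mice. It was 4.91% for e/e against wild-type under PBS. Of 16 other junction genes measured (17 listed), 0 passed in any comparison (limma), and 2 had an unadjusted p under 0.05 in wild-type mice. They were Marveld2 (tricellulin, at the corners between cells), with a difference of -0.50 ± 0.13 (adjusted p = 0.239), and Cgnl1 (paracingulin), with -0.31 ± 0.09 (adjusted p = 0.266). In wild-type mice 9 of the 16 were higher and 7 lower, with a median of 0.05. For e/e against wild-type under PBS, Jam3 differed by 0.26 ± 0.10 and F11r by -0.48 ± 0.20, both junctional adhesion molecule genes. On leaving out 1 array Jam3 ran from 0.11 (without e/e PBS 2) to 0.40 (without e/e PBS 1) and F11r from -0.77 to -0.19 (without wild-type PBS 1 and 2 in turn).

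Of 21 other barrier transporter genes measured (22 listed), 0 passed in any comparison (limma). In wild-type mice, in e/e mice and for e/e against wild-type under PBS, 3, 2 and 5 had an unadjusted p under 0.05. Of all genes 12.3%, 3.56% and 4.91% did so. The 21 genes had medians of -0.02 in wild-type mice, 0.03 in e/e mice and -0.10 for e/e against wild-type under PBS. The smallest p among them belonged to Slc6a6, the taurine transporter, which lay as Slco1a4 did: at 0.02 and 0.14 with NDP-MSH in e/e mice, at -0.15 and -0.02 in e/e PBS, at -0.04 and -0.22 with NDP-MSH in wild-type mice, and at 0.40 and 0.38 in wild-type PBS. Its wild-type PBS arrays were above all 6 others. It differed by -0.52 ± 0.09 for NDP-MSH in wild-type mice (limma, adjusted p = 0.13) and by -0.47 ± 0.09 for e/e against wild-type under PBS (adjusted p = 0.869). Tfrc, the transferrin receptor, differed by -0.27 ± 0.09 for NDP-MSH in wild-type mice and by 0.25 ± 0.09 in e/e mice, the same order of signs as Abcb1a. The effects on Tfrc differed by 0.52 ± 0.12 between the genotypes (adjusted p = 0.43). Slc7a5, the large neutral amino acid carrier, differed by 0.18 ± 0.07 in e/e mice, and Slc38a5 by 0.48 ± 0.17 for e/e against wild-type under PBS, neither past the threshold.

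Endothelial genes gave the background for these values. Of 19 identity genes measured (20 listed), 0 passed in any comparison (limma), and 2, 2 and 1 had an unadjusted p under 0.05 in the same order of comparisons. For this and the following lists, the shares of all genes were 12.3%, 3.56% and 4.91%. Of the 19 genes, 13 were higher and 6 lower after NDP-MSH in wild-type mice with a median of 0.07, and 14 were higher in e/e mice with a median of 0.06. For e/e against wild-type under PBS 7 were higher and 12 lower (median -0.08). Cd34, at 0.34 ± 0.14 in wild-type mice, and Adgrf5, at -0.35 ± 0.14, had the smallest p there and opposite signs, and Adgrf5 was -0.16 without wild-type PBS 1 and -0.54 without wild-type PBS 2. Podxl, of the luminal glycocalyx, differed by 0.32 ± 0.09 for e/e against wild-type under PBS and Ets1 by -0.33 ± 0.10 for NDP-MSH in e/e mice. Among 10 genes of fenestrae and caveolae, Cav1 and Cav2, the caveolins, were higher after NDP-MSH in both wild-type arrays, by 0.35 ± 0.09 (adjusted p = 0.238) and 0.33 ± 0.12 (adjusted p = 0.333), with 0 of 10 past the threshold and these 2 at an unadjusted p under 0.05. With NDP-MSH in e/e mice they differed by 0.16 ± 0.09 and 0.20 ± 0.12, and 0 of 10 passed, with Nrp1 (-0.24 ± 0.09) and Cavin2 (0.28 ± 0.12) at an unadjusted p under 0.05. Under PBS, Cavin2 differed by -0.30 ± 0.12 and Aplnr by 0.22 ± 0.09 between e/e and wild-type mice, with 0 of 10 past the threshold and these 2 at an unadjusted p under 0.05. In the Wnt list, which holds receptors and targets of the signal that maintains the barrier, 0 of 16 measured genes passed, and 2, 1 and 3 had an unadjusted p under 0.05. Its medians were -0.02 in wild-type mice, 0.04 in e/e mice and -0.08 for e/e against wild-type under PBS, where Reck, a Wnt co-receptor, differed by -0.36 ± 0.10 and Apcdd1 by -0.53 ± 0.14. Of 12 pericyte and mural cell genes 0 passed, and 2, 1 and 0 had an unadjusted p under 0.05 (median 0.06 in wild-type mice and 0.02 in e/e mice).

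Among 10 astrocyte genes, which in whole-brain RNA cannot be placed at the endfeet around vessels, 9 were lower after NDP-MSH in wild-type mice. Their median was -0.19, while over all genes it was 0.02 and 55% were higher. Where 0.176% of all genes were called, 1 of the 10 passed. This was Agt, angiotensinogen, which fell to -0.51 and -0.61 with NDP-MSH in wild-type mice, against 0.32 and 0.25 in wild-type PBS (difference -0.84 ± 0.09, limma, adjusted p = 0.0235). The call was lost in 9 of 15 alternatives. These are the arrays with low cerebellar transcripts. Among 8 genes of activated endothelium 0 passed, with a median of 0.14 in wild-type mice and -0.29 in e/e mice. In each comparison of groups 2 had an unadjusted p under 0.05, against 12.3%, 3.56% and 4.91% of all genes. Selp (P-selectin) differed by 1.16 ± 0.31 and Lrg1 by 0.60 ± 0.10 in wild-type mice. In e/e mice Lrg1 differed by -0.36 ± 0.10 and Lcn2 by -0.90 ± 0.29, and Lcn2 ran from -1.33 to -0.47 on leaving out 1 array. The e/e NDP-MSH arrays also had low interferon gamma response genes and differed in sex-linked genes, whose part in these values was not tested.

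How the barrier genes varied together was examined over the 8 arrays, in 45 pairs, with exact two-sided permutation tests. Of the pairs 25 had a positive and 20 a negative Pearson r, with a median of 0.06. None passed after adjustment over the 45 pairs, and 6 had an unadjusted p under 0.05. The highest r was that of Cldn5 with Mfsd2a, at 0.87 (Spearman's rho 0.86, exact permutation p = 0.00575 and 0.0107, adjusted p = 0.142 and 0.138). It was 0.77 without the 2 arrays farthest from the median of Cldn5, wild-type NDP-MSH 2 and e/e PBS 2. Mfsd2a with Plvap had r = 0.85 (rho 0.88, exact permutation p = 0.0063 and 0.00724), and Abcb1a with Slco1a4 r = 0.77 (rho 0.83, exact permutation p = 0.0258 and 0.0154). Without 2 arrays these were 0.77 and 0.63. Cldn5 with Slc2a1 had r = 0.74 (rho 0.67, exact permutation p = 0.0359 and 0.0831), and 0.67 without 2 arrays. Some other pairs held less. Without 2 arrays Cldn5 with Plvap had r = 0.41 in place of 0.77. Slc2a1 with Mfsd2a had 0.21 in place of 0.70, and Slc2a1 with Plvap -0.26 in place of 0.43, both at an unadjusted p above 0.05. The lowest was that of Ocln with Slc2a1, r = -0.82 (rho -0.86, exact permutation p = 0.0128 and 0.0107), and -0.73 without 2 arrays. In all these pairs Slc2a1 was taken as the mean of its 2 probe sets. The r of Slco1a4 with Slco1c1 was -0.60 (exact permutation p = 0.119) and rested on the wild-type PBS arrays, since it was 0.16 without them. The 8 arrays fall into 4 groups, and sex-linked and regional transcripts differed between them, so these values describe the arrays and not single cells. The permutations treated all 8 arrays as exchangeable, so their p-values take no account of the groups and partly reflect group differences.

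**Figure D5:**
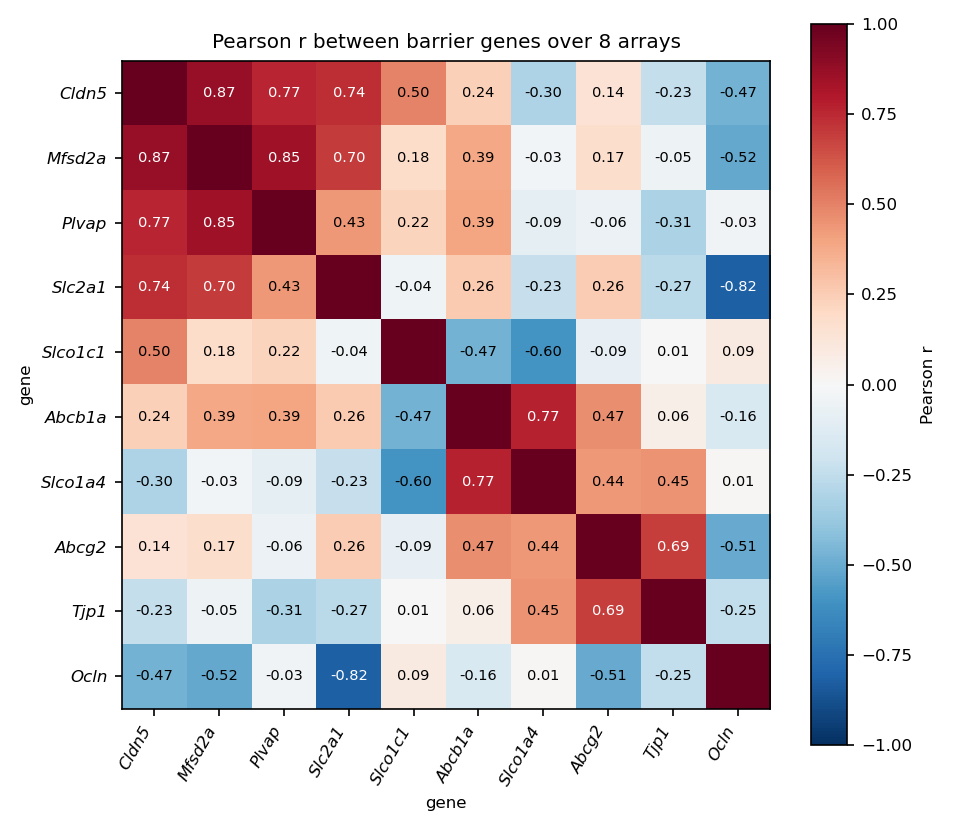
Pearson r over 8 arrays for each pair of barrier genes; colour runs from blue (-1) to red (1), and the genes are ordered by hand. Cldn5, Mfsd2a, Plvap and Slc2a1 have positive r with each other over all 8 arrays (Slc2a1 with Plvap is -0.26 without 2 of them), Abcb1a goes with Slco1a4, and Ocln is opposite to Slc2a1 at -0.82.

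Among all genes, the 3 most like a barrier gene over the 8 arrays were found by Pearson r, and for the 5 genes described here none of the other barrier genes was among them. The 3 highest Pearson r to Cldn5 were those of Gucy1b1 (0.993), Kcnf1 (0.992) and Klf16 (0.992), and those to Mfsd2a were Dapk1 (0.979), Glul (0.971) and Ap3s2 (0.971). To Abcb1a they were Dcst2 (0.952), Haus6 (0.946) and Rad18 (0.941), and to Slco1a4 Krba1 (0.943), Pi4ka (0.942) and Atp5j2 (0.942). To Plvap they were Hmox2 (0.998), Rabggta (0.990) and Wnt7b (0.983), a Wnt ligand of the brain. These genes were picked for the highest r over 8 arrays, so their r are high by selection.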

How the data were processed

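Total brain RNA was hybridised to 1 Affymetrix whole-transcript array per sample, labelled with the WT Plus kit per the labels' protocols. The deposited table gives the authors' processed values, taken as log2, for 33793 probe sets. Of the log base, summarisation and normalization, none is given in the sources used here. Every row is centred on its median (largest absolute row median 5e-07), so no levels or dim-probe filter by level were available. The single-precision step left in the values puts the uncentred value of 7676 probe sets above 8 and of 25590 between 4 and 8, and leaves 527 unresolved. Array medians ran from -0.0043 to 0.014. The number of arrays limits the precision.

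The platform annotation gave 23521 probe sets 1 gene symbol. It gave 1814 several, which were not used, and 8458 have no name here. Of the first kind, 23328 had an Entrez identifier in the RefSeq table (GRCm38.p6), all with the same symbol. Probe sets were averaged per gene. limma 3.58.1 (R 4.3.3) fitted 1 coefficient per group over all 8 arrays (4 residual and 3.45 prior degrees of freedom), with Benjamini-Hochberg adjustment over 22180 genes. Intervals are 95%, from the moderated test. The fit was tested on simulated data over 22180 genes, where it called 43 of 50 genes changed by 1 and 6 of 21980 unchanged genes in the wild-type comparison. The genes and the 14 further lists (161 of 176 genes measured) were chosen with earlier results of these data known. All 10 barrier genes are named; from the other lists, genes past the threshold or among the 2 smallest p in a comparison; always Xist, Eif2s3y, Prl, Gh, Pomc, Cga, Cbln3, Gabra6 and Ttr, as marks of arrays; outside the rule, Abcb1b and Ly6c1; for likeness, the 3 highest r, leaving out predicted, small RNA and receptor-family genes. Alternatives were the replicate block, other normalizations, fewer arrays, single probe sets, only probe sets at 8 or above and robust moderation. Plots were made in Python 3.11.15 using matplotlib 3.10.9.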

Additional observations from a re-analysis of the deposited data

How the results depend on the processing

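The 10 barrier genes had 0 calls in each of the 4 comparisons under every one of 15 alternatives that gave them a value, and the smallest adjusted p was 0.125. Abcg2, Cldn5, Ocln and Plvap had no value among probe sets above 8, and the fit to only the arrays compared gave none for the difference of effects. Of 578 recomputed values 27 changed sign, each on leaving out 1 array and none under another normalization, for differences of at most 0.15 in size. The lowest and highest values on leaving out each array follow for the differences that changed sign. For NDP-MSH against PBS in wild-type mice they ran for Abcg2 from -0.0737 to 0.108 and Tjp1 from -0.188 to 0.113. In e/e mice they ran for Cldn5 from -0.0404 to 0.249, Mfsd2a from -0.186 to 0.181, Ocln from -0.105 to 0.14, Plvap from -0.044 to 0.0843, Slc2a1 from -0.0357 to 0.0956, Slco1c1 from -0.0436 to 0.351 and Tjp1 from -0.0297 to 0.0274. For the difference of effects, e/e minus wild-type, they ran for Abcg2 from -0.0172 to 0.164, Cldn5 from -0.282 to 0.00719, Plvap from -0.1003 to 0.028, Slco1c1 from -0.301 to 0.0937 and Tjp1 from -0.114 to 0.187. In e/e against wild-type mice under PBS they ran for Cldn5 from -0.159 to 0.131, Mfsd2a from -0.243 to 0.124, Ocln from -0.0843 to 0.0293, Plvap from -0.0962 to 0.00946, Slc2a1 from -0.0963 to 0.0566 and Tjp1 from -0.0231 to 0.044. Of differences that kept their sign, Tfrc in wild-type mice was -0.18 without wild-type NDP-MSH 2, Slc38a5 under PBS 0.31 without e/e PBS 1 and Reck under PBS -0.23 without e/e PBS 2. After another quantile normalization Slco1c1 was 0.40 in wild-type mice and 0.47 under PBS, and Slc38a5 0.75. The cause was not tested.

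Over all genes, the 39 calls in wild-type mice became 14 with the replicate block, 20 after another quantile normalization, 5 with only the 4 arrays compared and between 0 and 49 on leaving out an array (0 without wild-type PBS 2, 15 without wild-type PBS 1, 7 and 11 without wild-type NDP-MSH 1 and 2, and 13 without either e/e NDP-MSH array). Calls in e/e mice ran from 0 to 51 (51 on leaving out e/e PBS 1, 4 on leaving out e/e PBS 2), those for e/e against wild-type under PBS from 0 to 4, and those for the difference of effects from 0 to 7, with 1 when quantiles were matched again and 2 among probe sets above 8. The median of the barrier genes in wild-type mice lay between -0.0041 and 0.11 on leaving out an array (0.11 without wild-type NDP-MSH 2). The replicate numbers share no stated origin: the deviations of same-numbered arrays correlated at -0.098 in wild-type and 0.179 in e/e mice, and the replicate block changed no barrier gene's call. Agt lost its call with the block (adjusted p = 0.0607) while its difference ran from -0.89 to -0.79 over all alternatives, and Cbln3 and Gabra6 lost theirs without wild-type PBS 2 (adjusted p = 0.129 for both), with differences from -3.31 to -2.79 and from -3.28 to -2.77 on leaving out an array.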
